A study of Glycine max with 12 samples.

Results

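Probesets for 3 enzymes of carbon and reductant supply were followed in soybean roots and nodules. Of the 42748 probes on the array that are not controls, 5 were chosen by probe name. GMFL01-28-O12-R_277 and BI469169.1_494 are described as PEPC4, a phosphoenolpyruvate (PEP) carboxylase. GMFL01-18-L05-R_174 and BQ452515.1_362 are described as glucose-6-phosphate dehydrogenase (G6PDH), and BI969663.1_570 as sucrose synthase. The files name probes by clone or sequence accession only, and the enzyme names come from the study's lists of probesets that nitrate changed over 2-fold. PEPC4 was listed there as raised in roots, GMFL01-18-L05-R_174 and BI969663.1_570 as raised in nodules, and BQ452515.1_362 as lowered in roots. These lists were made from the same arrays, so the direction of that one contrast for each probeset is a description and not independent evidence. The difference of the nitrate effect between organs contains that contrast, so it is not independent of the choice either.

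PEP carboxylase adds bicarbonate to PEP and gives oxaloacetate, which feeds malate, the main fuel of the bacteroids in nodules, and the carbon skeletons of amino acids. G6PDH opens the oxidative pentose phosphate pathway, whose NADPH can reduce ferredoxin for nitrite reductase and glutamate synthase in plastids that lack photosynthesis. Sucrose synthase splits the sucrose that arrives in the phloem into UDP-glucose and fructose, and it is an abundant protein of legume nodules.

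The plants were Glycine max cultivar Nourin No. 2, inoculated with Bradyrhizobium and grown without nitrogen. From 19 days after planting, the treated plants received 5 mM nitrate for 24 h, while control plants stayed in the solution without nitrogen. Roots were taken from the lower part of the root system, where no nodules were visible, and nodules were the large ones higher up. Organ and treatment gave 4 groups, each with 3 samples, each a pool of 3 plants, and each sample had its own one-colour array, 12 in all. The number of arrays limits the precision. The labels do not say whether samples were grown in separate batches, so p-values measure the spread between these samples only. In RNA of a whole organ, fewer cells of a type and less RNA per cell cannot be told apart. The nodule markers leghemoglobin, uricase and nodulins 22, 24 and 26 were not analysed here, so the organ labels were not set against markers.

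Signals were scaled to a mean of 2500 on each array and are called scaled signals. The share of probes well above background was 79.2% to 84.5% by array, and all 5 probesets were so on all 12 arrays. The dimmest root array was the second control (75th percentile of scaled signals 1143, others at least 1399). The arrays lay on 3 slides. Control root array 1 shared a slide with the 3 nitrate-treated root arrays, and nitrate-treated nodule array 3 shared one with the 3 control nodule arrays. No slide held roots and nodules of the same treatment. Each comparison of organs within a treatment is thus also one between slides, and organ and slide cannot be told apart there. A slide block does not separate them. Changes are log2 differences fitted with limma, with p-values adjusted over all probes by the method of Benjamini and Hochberg. A probeset is said to rise or fall at an adjusted p under 0.05 and a change above 2-fold. The smallest p that an exact permutation test allows with 3 arrays against 3 is 0.1, so the calls depend on the spread that limma estimates over all probes.

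PEPC4 had the largest nitrate changes among the 5 probesets, and they were in roots. Nitrate raised both of its probesets in roots, whereas in nodules neither changed by more than 1.31-fold. On GMFL01-28-O12-R_277 the control roots gave scaled signals of 723, 210 and 661, and the nitrate-treated roots gave 6842, 10063 and 12694. The lowest treated array was far above the highest control array, and control array 2 was the lowest of the 3 controls. The change was 4.36 (SE 0.50, adjusted p = 0.0083), which is 20.6-fold with a 95% confidence interval of 9.15 to 46.3. Only 29 of the 33957 probes tested in roots had a larger rise, since this probeset ranked 30.

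On BI469169.1_494 the control roots gave 102, 45.4 and 101, and the nitrate-treated roots gave 396, 527 and 679. These groups did not overlap either, and control array 2 was again the lowest. The change was 2.75 (SE 0.38, adjusted p = 0.0154), or 6.71-fold (95% interval 3.64 to 12.4), and it ranked 109. Within the slide that holds control array 1 and all treated arrays, the changes were 3.72 and 2.35 for the PEPC4 probesets. With the slide as a block in the fit, the adjusted p became 0.102 and 0.165. The call for BI469169.1_494 was also lost without control array 3 (adjusted p = 0.0512) and without treated array 1, 2 or 3 (0.0514, 0.0621 and 0.0643). When the root arrays were paired by replicate number in the fit, both PEPC4 probesets kept their call (adjusted p = 0.0021 and 0.0044).

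In nodules the mean PEPC4 signals lay between those of control and nitrate-treated roots on both probesets. Control nodules gave 2050, 2065 and 1729 on GMFL01-28-O12-R_277, and nitrate-treated nodules gave 2428, 2798 and 2420. The groups did not overlap, but the difference of 0.39 (SE 0.10, adjusted p = 0.0248) was only 1.31-fold and under the 2-fold criterion. On BI469169.1_494 control nodules gave 102, 106 and 88.7, and nitrate-treated nodules 113, 140 and 118, a difference of 0.32 (SE 0.11, adjusted p = 0.0571). Here too every treated array was above every control array.

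**Figure D1:**
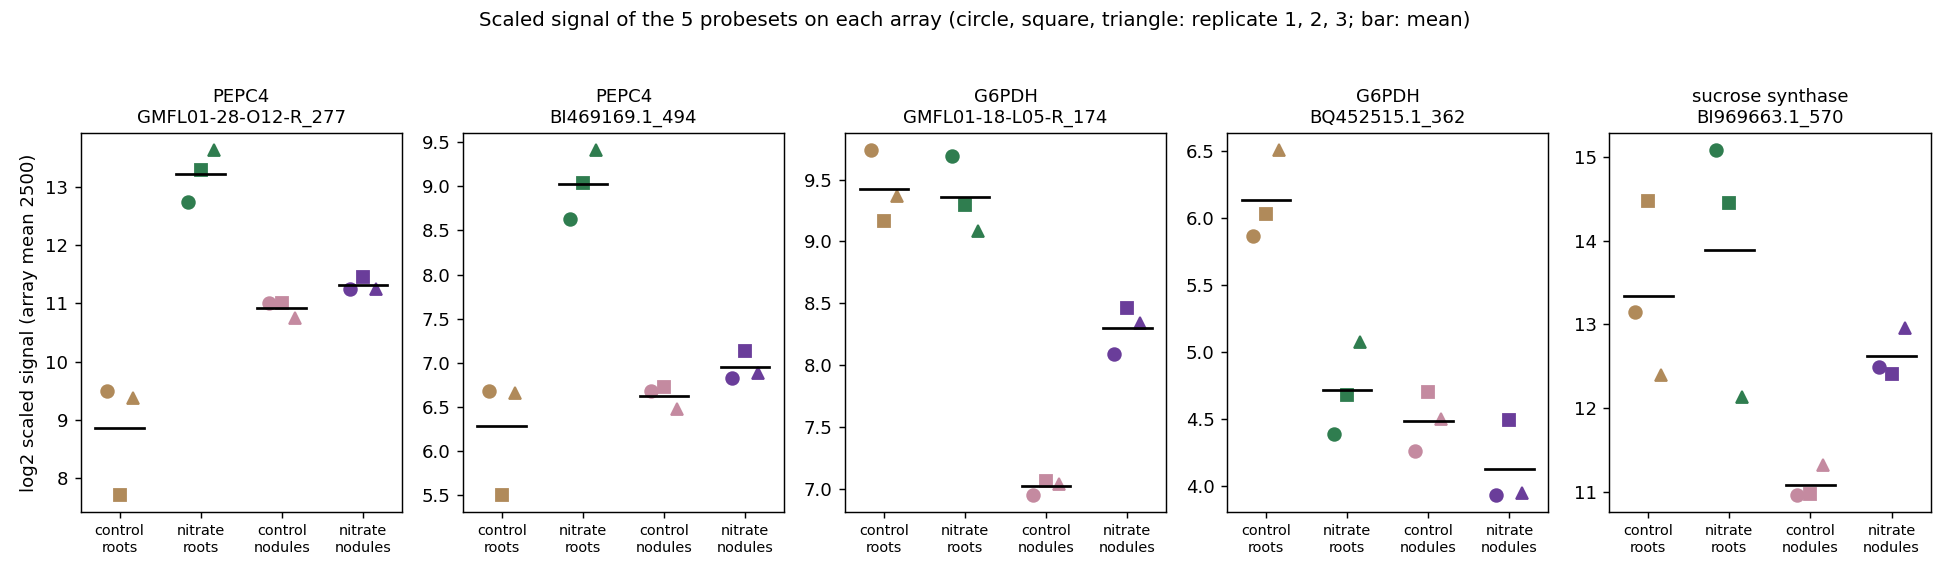
Scaled signal on the log2 scale (y axis, a separate range for each panel) of each of the 5 probesets on the 12 arrays, by group (x axis). Circles, squares and triangles are replicates 1, 2 and 3 and bars are group means of 3 arrays. Nitrate-treated roots stand above all other groups for both PEPC4 probesets, and the 6 root arrays of sucrose synthase spread over several log2 units.

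The organ order of PEPC4 turned with nitrate. Without nitrate, GMFL01-28-O12-R_277 was 4.18-fold lower in roots than in nodules, at -2.06 (SE 0.47, adjusted p = 0.0076), with no overlap. With nitrate it was 3.76-fold higher in roots, at 1.91 (SE 0.23, adjusted p = 0.00048). BI469169.1_494 did not differ beyond its spread between control organs, at -0.34 (95% interval -1.15 to 0.46, adjusted p = 0.395), and was 4.22-fold higher in nitrate-treated roots than in nitrate-treated nodules, at 2.08 (SE 0.22, adjusted p = 0.00023). The nitrate effect itself was larger in roots than in nodules by 3.97 (SE 0.57, adjusted p = 0.0026) for GMFL01-28-O12-R_277 and by 2.42 (SE 0.43, adjusted p = 0.0053) for BI469169.1_494. With the slide as a block, the second of these lost its call (2.09, adjusted p = 0.0747). With slide as a random block, the control organ difference of GMFL01-28-O12-R_277 did so too (-1.97, adjusted p = 0.0759).

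The PEPC4 probesets followed each other closely on all but the control root arrays. The log2 difference between them was 4.20 in roots given nitrate, 4.30 in control nodules and 4.37 in nodules given nitrate, as means of 3 arrays. In control roots it was 2.58, with a range of 2.21 to 2.82 over the 3 arrays. A difference between probes holds their unequal brightness, so only its change between groups can be read. Whether both probes report the same transcripts was not tested.

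The G6PDH probesets behaved differently from PEPC4 and from each other. One rose in nodules and was level in roots, and the other fell in roots. GMFL01-18-L05-R_174 gave 852, 575 and 661 in control roots and 826, 628 and 542 in nitrate-treated roots. These groups overlapped almost fully, and the change was -0.07 (95% interval -0.66 to 0.53, adjusted p = 0.892). Control nodules gave 124, 134 and 132, and nitrate-treated nodules gave 273, 352 and 324. The nodule rise was 1.28 (SE 0.11, adjusted p = 0.0024), or 2.42-fold (95% interval 2.03 to 2.89), with no overlap. It kept its call under every alternative fit that was run.

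Levels of GMFL01-18-L05-R_174 were higher in roots under both conditions. The organ difference was 2.40 (SE 0.19, adjusted p = 6.8e-05), or 5.29-fold, without nitrate. With nitrate it was 1.06 (SE 0.19, adjusted p = 0.0027), or 2.08-fold. That value fell under the 2-fold criterion without nitrate-treated root array 1 (0.89), without nitrate-treated nodule array 1 (0.96) and under normexp background correction (0.87). The nitrate effect was smaller in roots than in nodules by 1.35 on the log2 scale (-1.35, SE 0.27, adjusted p = 0.0091).

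BQ452515.1_362 was lower in nitrate-treated than in control roots and dim on every array, though well above background. Control roots gave 58.1, 65.3 and 90.6, and nitrate-treated roots gave 21.0, 25.6 and 33.7, with no overlap. The change was -1.41 (SE 0.27, adjusted p = 0.0453), a 2.66-fold fall, and arrays with the same replicate number differed by -1.47, -1.35 and -1.43. In the unpaired fit of the 6 root arrays the call rested on a narrow margin. It was lost with the slide as a block (-1.14, adjusted p = 0.369), with no filter on dim probes (adjusted p = 0.072) and under normexp background correction (-0.73, adjusted p = 0.0598). It was also lost without control array 2 (0.0521) or 3 (0.182) and without treated array 1 (0.172), 2 (0.194) or 3 (0.0913). Pairing the root arrays by replicate number kept the call (SE 0.19, adjusted p = 0.0084), as did 1 fit of all 12 arrays (adjusted p = 0.0042).

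Control nodules gave 19.3, 26 and 22.6 on BQ452515.1_362, and nitrate-treated nodules 15.3, 22.5 and 15.5. These overlapped, and the difference of -0.36 (SE 0.19, adjusted p = 0.156) did not pass the test. The probeset was higher in control roots than in control nodules by 1.64 (SE 0.22, adjusted p = 0.00079), or 3.12-fold. With nitrate the organs differed by 0.59 (SE 0.23, adjusted p = 0.06) and overlapped. The difference of the nitrate effect between organs was -1.05 (SE 0.34, adjusted p = 0.0502). It passed with the replicate number as a block (adjusted p = 0.0348).

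**Figure D2:**
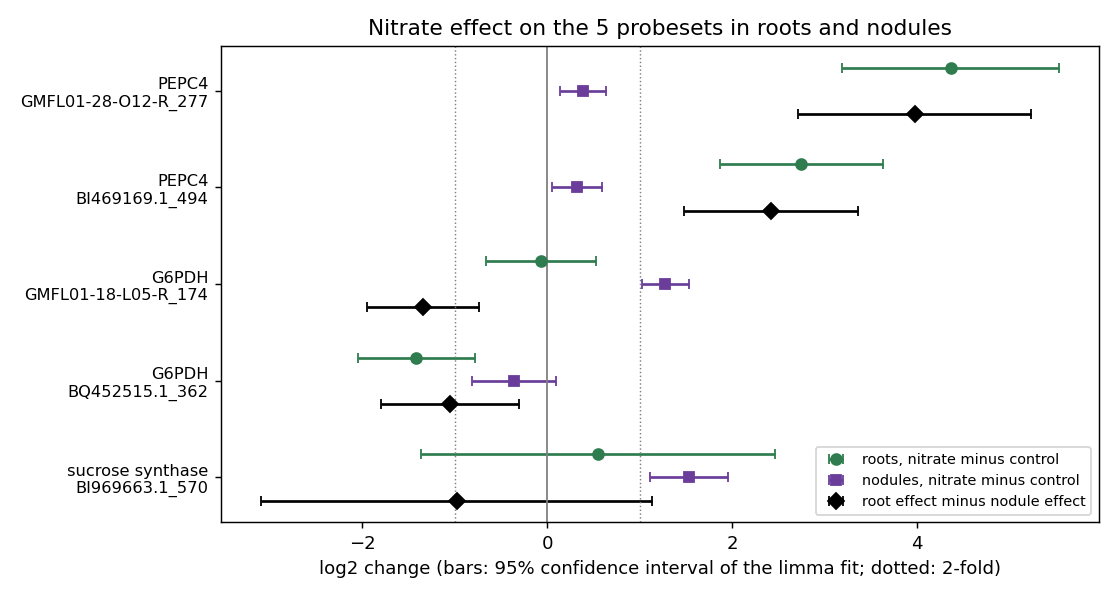
Log2 change with its 95% confidence interval (x axis) for each of the 5 probesets (y axis), in roots, in nodules, and for the root effect minus the nodule effect, from limma fits of 6, 6 and 12 arrays. Dotted lines mark 2-fold. PEPC4 lies to the right in roots, GMFL01-18-L05-R_174 and sucrose synthase lie past 2-fold only in nodules, and the root interval of sucrose synthase covers 0.

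The sucrose synthase probeset rose in nodules, while its root arrays differed too much among themselves for a call. It is described from a second sucrose synthase of pea and is the only one of that enzyme in the lists. Those lists hold changed probesets only, so other sucrose synthase probes were not followed. The study's discussion calls its sucrose synthase genes downregulated in nodules, while its results give nodule ratios that range from slightly raised to slightly lowered. The rise is therefore stated for this probeset alone. For BI969663.1_570 the control nodules gave 2006, 2013 and 2555, and the treated nodules gave 5749, 5441 and 7958. The groups were well apart, and the rise was 1.53 (SE 0.17, adjusted p = 0.0032), or 2.89-fold (95% interval 2.16 to 3.87). A fit of all 12 arrays, which takes its spread from roots as well, gave the same change with an adjusted p of 0.177.

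Control roots gave 9047, 22660 and 5394 on this probeset, and nitrate-treated roots 34547, 22324 and 4503. The highest and the lowest of the 6 root signals both belonged to treated roots. The change was 0.55 (95% interval -1.36 to 2.46, adjusted p = 0.709). Arrays of the same replicate number differed by 1.93, -0.02 and -0.26, so 1 of 3 pairs carried the difference. The SD within groups was 1.32 on the log2 scale against a median of 0.36 over all probes tested in roots, and 99.1% of them had a smaller one. The treated array with the lowest sucrose synthase signal (4503) had the highest PEPC4 signal (12694), and control array 2, lowest in PEPC4 (210), was the highest control for sucrose synthase (22660). Control arrays 1 and 3 went the other way, with array 1 the higher on both PEPC4 (723 and 661) and sucrose synthase (9047 and 5394). A relation between the probesets was not tested.

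Sucrose synthase was 4.75-fold higher in control roots than in control nodules, at 2.25 (SE 0.50, adjusted p = 0.0067). The nearest arrays of the groups were 5394 and 2555. With slide as a random block this call was lost (adjusted p = 0.0801). With nitrate the organs overlapped and differed by 1.27 (SE 0.73, adjusted p = 0.159), and the difference passed only without nitrate-treated root array 3 (2.14, adjusted p = 0.0011). The nitrate effect differed between organs by -0.98 (95% interval -3.10 to 1.13, adjusted p = 0.495), so the rise in nodules was not shown to be particular to nodules.

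**Figure D3:**
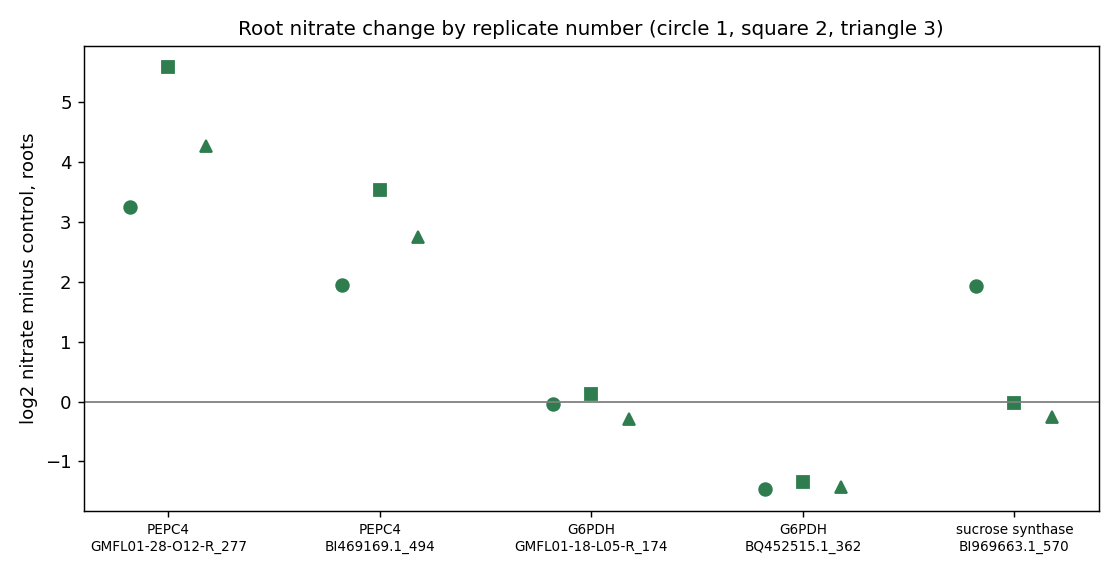
Log2 difference between nitrate-treated and control roots with the same replicate number (y axis) for the 5 probesets (x axis). Circles, squares and triangles are numbers 1, 2 and 3. The PEPC4 differences run from 1.95 to 5.58 and those of BQ452515.1_362 from -1.47 to -1.35, while sucrose synthase is at 1.93 for number 1 and near 0 for the other numbers.

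Of the 5 probesets, 2 rose and 1 fell in roots, where 0.851% of all tested probes rose and 1.7% fell (2.55% in all). In nodules 2 rose and none fell (none also at an unadjusted p by limma or by the methods' t-test), where 3.19% of all probes rose and 5.43% fell (8.61% in all). These counts follow from the lists that named the probesets. Between control organs 3 were higher in roots and 1 was lower, against 20.4% and 29.9% of all probes (50.3% in all). Between nitrate-treated organs 3 were higher in roots and none lower (by either test, adjusted or not), against 22.2% and 23.7% (45.8% in all). The nitrate effect was larger in roots for 2 and smaller for 1, against 9.33% and 5.33% of probes (14.7% in all). That count is not independent of the lists either. With the replicate number as a block, which pairs the root arrays, 2903 of 33957 probes (8.55%) were called in roots in place of 865, with no change of call among the 5. The root count was 2521 without control array 1, 1520 without control array 2, and 194 to 316 without any other root array. Over all probes, the median change was 0.10 in roots and -0.08 in nodules, and the median difference of control roots from control nodules was -0.29, or -0.12 under 75th percentile scaling.

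The order of the 4 groups differed by enzyme. GMFL01-28-O12-R_277 ran from control roots (531 ± 280, SD, n = 3) over control nodules (1948 ± 190) and nitrate-treated nodules (2549 ± 216) to nitrate-treated roots (9866 ± 2931). BI469169.1_494 had the same order of means, at 82.9 ± 32.5, 98.9 ± 9.06, 124 ± 14.4 and 534 ± 142, although control roots and control nodules overlapped. GMFL01-18-L05-R_174 ran from control nodules (130 ± 5.10) over nitrate-treated nodules (316 ± 39.8) to the roots, which overlapped at 665 ± 146 with nitrate and 696 ± 142 without. BQ452515.1_362 was high only in control roots (71.4 ± 17.1), and the other groups, at 26.8 ± 6.44 in nitrate-treated roots, 22.6 ± 3.37 in control nodules and 17.8 ± 4.12 in treated nodules, each overlapped the next. Sucrose synthase ran from control nodules (2191 ± 315) over nitrate-treated nodules (6383 ± 1373) to control roots (12367 ± 9099) and nitrate-treated roots (20458 ± 15109), with overlap between all of the last 3.

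The study's lists hold 3 other G6PDH probesets, all listed as raised in roots, and their pattern was unlike that of the 2 above. BI968161.1_483 gave 1600, 735 and 1197 in control roots and 10916, 11708 and 14956 in nitrate-treated roots. Its groups were far apart, and its change was 3.47 (SE 0.32, adjusted p = 0.0034). BQ094170.1_453 changed by 3.61 (SE 0.35, adjusted p = 0.0043), from 128 ± 51.2 to 1491 ± 303, and BQ629590.1_508 by 3.46 (SE 0.34, adjusted p = 0.0048), from 339 ± 129 to 3579 ± 719. All 3 kept their call without any 1 root array, with adjusted p from 0.0035 to 0.0283. With the slide as a block BQ094170.1_453 and BQ629590.1_508 lost it (adjusted p = 0.0522 and 0.0599). All 3 lost it by the methods' t-test after adjustment.

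In nodules the nitrate effect on these 3 G6PDH probesets was -0.14 (SE 0.06), -0.20 (SE 0.09) and -0.22 (SE 0.09), with adjusted p of 0.1, 0.0988 and 0.0857. Their groups in nodules were near each other, for instance 2961 ± 74.5 and 2683 ± 77.7 for BI968161.1_483. Without nitrate they were lower in roots than in nodules, by -1.40, -1.76 and -1.48 (adjusted p of 0.005, 0.0028 and 0.0053). With nitrate they were higher in roots, by 2.21, 2.06 and 2.20. Of the 5 probesets that carry the G6PDH name, 3 rose in roots, 1 fell in roots and 1 rose in nodules. Over all probes, 0.851% rose and 1.7% fell in roots, and 3.19% rose in nodules. The tally restates the lists that named the probesets. Those lists hold changed probesets only, so an unchanged G6PDH probe could not be counted. Plants have cytosolic and plastid G6PDH isoforms. BQ452515.1_362 is described by its similarity to a cytosolic isoform of alfalfa, and the descriptions of the others name no compartment.

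**Figure D4:**
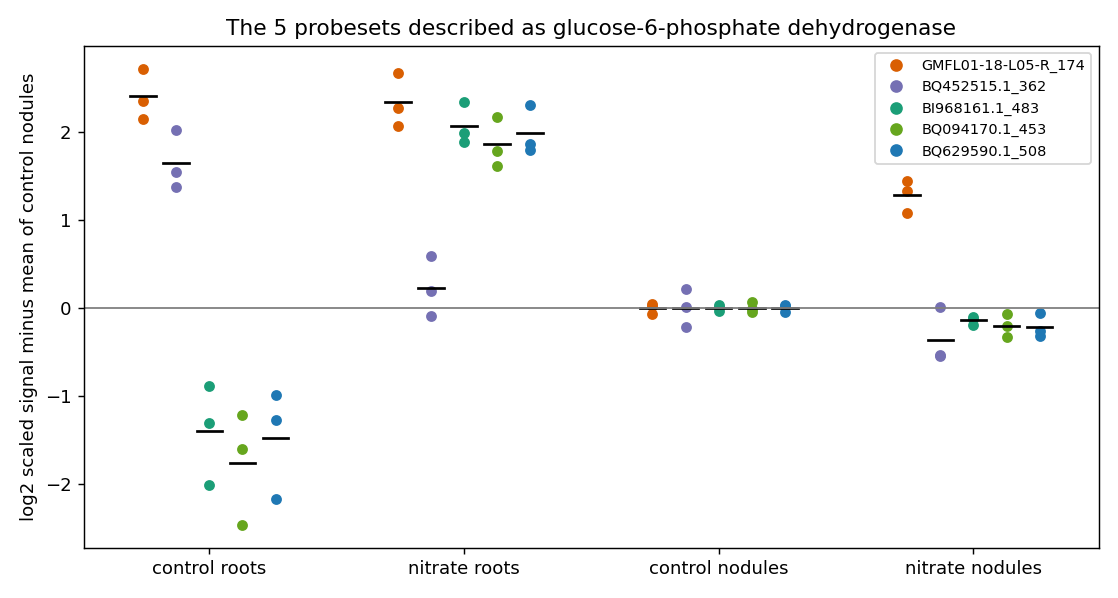
Log2 scaled signal minus the mean of control nodules (y axis) for the 5 probesets described as G6PDH, on each array of the 4 groups (x axis), with black bars for means of 3 arrays. BI968161.1_483, BQ094170.1_453 and BQ629590.1_508 lie below 0 in control roots and near 2 in nitrate-treated roots, GMFL01-18-L05-R_174 is above 2 in both root groups, and BQ452515.1_362 drops from control to nitrate-treated roots.

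A kinase of PEP carboxylase fell in roots, where the PEPC4 probesets rose. CA783260.1_595, described as PPCK4, a kinase that phosphorylates PEP carboxylase and lessens its inhibition by malate, gave 2157, 2379 and 2602 in control roots and 1073, 1025 and 1214 in nitrate-treated roots. The groups did not overlap, and the fall was -1.11 (SE 0.20, adjusted p = 0.0353). It was lost with the slide as a block (-0.97, adjusted p = 0.289) and without control array 3 or treated array 1, 2 or 3 (adjusted p of 0.118 to 0.211). The methods' t-test after adjustment did not call this fall either. In nodules PPCK4 went from 2239 ± 324 to 2924 ± 297, a difference of 0.39 (SE 0.13, adjusted p = 0.0513).

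The wider pathway was read from the study's lists, in which 44 probesets, the 5 included, matched the descriptions of sucrose cleavage, glycolysis, the oxidative pentose phosphate pathway, the enzymes of PEP and organic acids, or ferredoxin. Of these, 30 were listed as raised and 3 as lowered in roots, and 7 as raised and 4 as lowered in nodules, so each list's own contrast is fixed by that choice. The list lowered in nodules was read in part only. In roots 14 of 44 rose and 3 fell, with a median of 1.27 against 0.10 for all probes, of which 0.851% rose and 1.7% fell. In nodules 8 of 43 tested rose and 8 fell, with a median of -0.06 against -0.08 for all probes, of which 3.19% rose and 5.43% fell. The root calls numbered 35 with the replicate block, 3 with the slide as a block, 27 without control array 1, 7 without control array 3, and 8, 6 and 8 without treated array 1, 2 or 3. The nodule calls numbered 10 without control nodule array 1.

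Of the 30 probesets listed as raised in roots, 1 rose in nodules, a contrast their choice did not use, while 4 fell and 25 did not pass, with a median of -0.10 and a range from -1.66 to 1.01. Of all probes, 3.19% rose and 5.43% fell in nodules. Without nitrate, 17 of the 30 were lower and 2 higher in roots than in nodules (median -1.32), against 29.9% lower and 20.4% higher over all probes. With nitrate, 1 was lower and 14 were higher (median 0.83), against 23.7% and 22.2%. These organ comparisons share their root arrays with the contrast that chose the probesets.

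In the oxidative pentose phosphate list, 7 of 13 probesets rose in roots and 1, BQ452515.1_362, fell, while 2 rose and 1 fell in nodules. The study listed 10 of the 13 as raised in roots, 1 as lowered in roots and 2 as raised in nodules. All of these counts but the fall in nodules follow from that choice. Over all probes, 0.851% rose and 1.7% fell in roots, and 3.19% rose and 5.43% fell in nodules. With the replicate block 10 rose in roots. After the G6PDH probesets, the largest changes in nodules were those of a plastid antiporter for glucose-6-phosphate and PEP, CD395034.1_585, which fell by 1.16 (SE 0.15, adjusted p = 0.0038), and of a transketolase, GMFL01-21-M13-R_479, which rose by 1.03 (SE 0.20, adjusted p = 0.01). In roots the antiporter stood at 1.55 (SE 0.53, adjusted p = 0.161, or 0.0265 with the replicate block) and transketolase at -0.19 (SE 0.31, adjusted p = 0.739). Transketolase moves carbon between sugar phosphates in the later steps of the pathway. The transketolase value fell under 2-fold without control nodule array 1 (0.85) or treated nodule array 2 (0.95), under normexp (0.72), with the slide as a block (0.96) and in the methods' t-test (0.998). The nodule fall of the antiporter was lost under normexp (a log2 change of -0.93) and in 1 fit of all 12 arrays (adjusted p = 0.117). Both probesets were well above background on only 2 of the 3 control root arrays.

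In the list of PEP and organic acid enzymes, 7 of 11 rose in roots (10 with the replicate block) and 1, PPCK4, fell, and 1 rose in nodules. The study listed 10 of the 11 as raised in roots and PPCK4 as lowered in roots, so the root counts follow from that choice. Over all probes, 0.851% rose and 1.7% fell in roots, and 3.19% rose in nodules. Beside PEPC4 the largest root changes were those of the malate dehydrogenases, which turn oxaloacetate into malate. BG156137.1_529 rose from 2116 to 9482 as means of 3 arrays, by 2.18 (SE 0.22, adjusted p = 0.0049). BI968929.1_166, described by its similarity to a nodule-enhanced malate dehydrogenase of pea, rose from 5027 to 19531, by 1.96 (SE 0.20, adjusted p = 0.0058). In nodules they differed by 0.31 (SE 0.08, adjusted p = 0.0217) and 0.16 (SE 0.07, adjusted p = 0.0951), under the 2-fold criterion. PEP carboxykinase, CA851920.1_416, which runs the PEP to oxaloacetate step in reverse, rose in both organs, by 1.85 (SE 0.22, adjusted p = 0.0097) in roots and 1.01 (SE 0.19, adjusted p = 0.0092) in nodules. Its root call was lost without control array 3 (adjusted p = 0.0592) or treated array 2 (0.0635), by the methods' t-test after adjustment (0.102) and with the slide as a block (0.11). Its nodule value fell under 2-fold without control nodule array 2 (0.88) or 3 (0.96) or treated nodule array 2 (0.86), under normexp (0.54) and with slides as a block (0.86). The root call of BI968929.1_166 was lost with the slide as a block (adjusted p = 0.0522).

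In the sucrose cleavage list, none of 9 probesets passed limma's test in roots after adjustment, and in nodules sucrose synthase rose while 4 others fell. In roots 5 were higher at an unadjusted p under 0.05 by limma or the methods' t-test, and 5 passed with the replicate block. The 4 that fell in nodules were 3 invertase probesets and a fructokinase. The study listed 5 of the 9 as raised in roots, 1 as raised in nodules and 3 as lowered in nodules. Among the nodule calls, only that of the fructokinase was not fixed by this choice. Invertase splits sucrose into glucose and fructose, and fructokinase phosphorylates fructose. Invertase probesets AI460920.1_448 and GMFL01-37-O24-R_231 fell in nodules by 1.85 (SE 0.34, adjusted p = 0.0081) and by 1.86 (SE 0.39, adjusted p = 0.012). The fructokinase probeset CA953282.1_302 fell by 1.56 (SE 0.44, adjusted p = 0.0297) in nodules and stood at 1.48 (SE 0.42, adjusted p = 0.109, or 0.0188 with the replicate block) in roots. Its nodule call was lost without any 1 control nodule array or treated nodule array 1 (adjusted p of 0.0531 to 0.0837) and in 1 fit of all 12 arrays (0.0555). A beta-fructosidase, BG236960.1_348, stood at 1.22 (SE 0.34, adjusted p = 0.103, or 0.0272 with the block) in roots and -1.66 (SE 0.65, adjusted p = 0.0776) in nodules.

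In the glycolysis list, 1 of 9 fell in roots and none rose by limma, although 5 were higher at an unadjusted p and 4 by the methods' t-test. With the replicate block 5 rose and 2 fell. In nodules 3 of 8 tested rose and 3 fell. The study listed 4 of the 9 as raised and 1 as lowered in roots, and 3 as raised and 1 as lowered in nodules. The root fall, the 3 nodule rises and the nodule fall of pyruvate kinase follow from that choice. An aldolase, GMFL01-13-E10-R_564, fell in roots by 1.93 (SE 0.31, adjusted p = 0.0248). That call was lost without control array 3 (adjusted p = 0.105) or treated array 1 (0.0899), 2 (0.0914) or 3 (0.0563), by the methods' t-test after adjustment (0.131), under normexp (a log2 change of -0.66) and with slides as a block (adjusted p = 0.108). The probeset was not well above background on any nodule array. A pyrophosphate-dependent phosphofructokinase, AW351152.1_664, fell in nodules by 1.36 (SE 0.32, adjusted p = 0.0175) and stood at 1.98 (SE 0.58, adjusted p = 0.115, or 0.0227 with the block) in roots. Pyruvate kinase, BU547018.1_625, which uses the same PEP as PEP carboxylase, fell in nodules by 1.47 (SE 0.12, adjusted p = 0.0024) and stood at 1.37 (SE 0.58, adjusted p = 0.229, or 0.0183 with the block) in roots. A glyceraldehyde-3-phosphate dehydrogenase that makes NADPH, BU550708.1_501, rose in nodules by 1.54 (SE 0.17, adjusted p = 0.0031) and stood at 0.34 (SE 0.30, adjusted p = 0.526) in roots. In nodules the phosphofructokinase call was lost without control nodule array 1 (adjusted p = 0.0603), in 1 fit of all 12 arrays (0.122) and under normexp (a log2 change of -0.70), that of pyruvate kinase in the fit of all arrays (adjusted p = 0.0717), and that of BU550708.1_501 under normexp (a log2 change of 0.93).

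Of the 2 ferredoxin probesets, electron carriers to nitrite reductase and glutamate synthase, GMFL01-10-D22-R_611 rose in nodules by 1.13 (SE 0.14, adjusted p = 0.0036) and stood at -0.43 (SE 0.33, adjusted p = 0.469) in roots. Its nodule value fell under 2-fold without control nodule array 1 (0.98) and under normexp (0.91). BE803085.1_81 stood at 1.16 (SE 0.34, adjusted p = 0.117, or 0.0289 with the replicate block) in roots and -0.45 (SE 0.11, adjusted p = 0.0187) in nodules. The study listed GMFL01-10-D22-R_611 as raised in nodules and BE803085.1_81 as raised in roots, so the nodule rise follows from that choice. Over all probes, 3.19% rose in nodules.

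**Figure D5:**
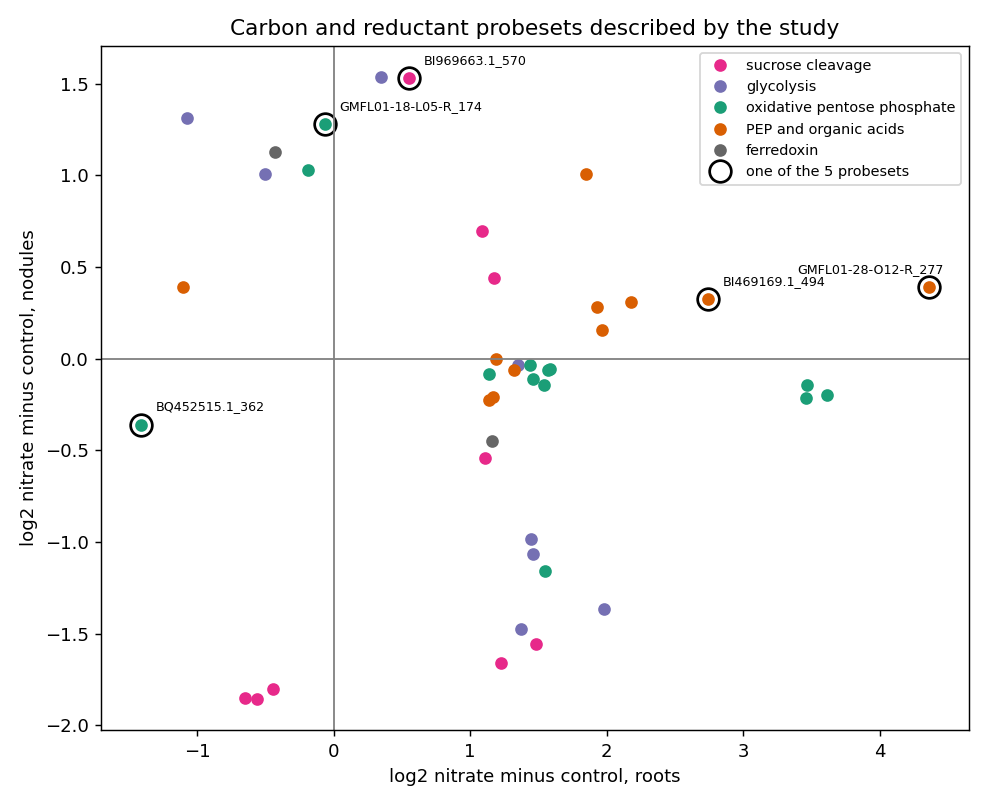
Log2 nitrate change in roots (x axis) against nodules (y axis) for 43 of the 44 probesets of the 5 lists, coloured by list, with the 5 enzyme probesets ringed and named. The aldolase that was not tested in nodules is left out. PEPC4 and 3 G6PDH probesets lie far to the right and near 0 in nodules, and sucrose synthase and GMFL01-18-L05-R_174 lie near the top.

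For each of the 5, the probesets with the most alike pattern over the 4 group means were found among 36432 tested probes, by the root mean square difference of centred log2 means. Group means were made from 3 arrays each, and the ranking is a description. Nearest to GMFL01-28-O12-R_277 was GMFL01-16-A20-F_423 (difference 0.17), described as uroporphyrin III methyltransferase, which makes the precursor of siroheme, the cofactor of nitrite reductase. Its changes were 3.96 in roots and 0.19 in nodules. GMFL01-08-P22-R_324, an undescribed cDNA clone, came next (0.24). CA783200.1_620, described as NADH glutamate synthase, was the third (0.32), with changes of 3.96 and 0.98. The other PEPC4 probeset ranked 40 (0.74).

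Nearest to BI469169.1_494 were BE821041.1_649 (0.085), described as an AAA+-type ATPase, then BI969370.1_546 (0.13) and AW596714.1_373 (0.14), with no enzyme named. For GMFL01-18-L05-R_174 the nearest were CD417960.1_250 (0.053), CD405677.1_540 (0.058) and AW164853.1_240 (0.066), none named as an enzyme. Sucrose synthase ranked 112 in that order (0.24), and from its own side GMFL01-18-L05-R_174 ranked 42. Nearest to BQ452515.1_362 were GMFL01-18-E03-R_441 (0.036), GMFL01-25-O07-R_456 (0.048), described as a lanthionine synthetase C-like protein, and AW277586.1_407 (0.060). Nearest to sucrose synthase were BG507654.1_440 (0.066), BU762347.1_2 (0.088) and GMFL01-25-I24-R_499 (0.12), none named as an enzyme.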

How the data were processed

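RNA of 12 samples, 3 in each of 4 groups, was measured on one-colour arrays of 60-base probes. Sample titles gave the group and the replicate number. The source field of control root sample 1 carries the number 2, and its title was followed. The deposited values are intensity values, the processed signals in which the authors' Feature Extraction software (version 10.5.1.1 per the file headers, 9.5.1 in the submitters' processing notes) had corrected spots for background array by array, with no scaling between arrays. The series table repeats these signals, with 529980 equal values. The 106 spots marked as outliers were left out, and no probe was saturated.

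Each array was scaled to a mean of 2500 over the 42748 probes that are not controls, the target of the methods, and taken to log2. Fits held the probes that stood well above background throughout at least 1 of their groups. Fits used limma 3.58.1 in R 4.3.3, on 6 arrays for each comparison and 12 for the difference between organs (roots minus nodules), with Benjamini-Hochberg adjustment. The scripts were tested on simulated data. Further steps used scipy 1.17.1, pandas 2.3.3 and numpy 2.4.6 in Python 3.11.15.

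Deviations from the group means correlated at 0.29, 0.40 and 0.61 between root arrays with the same replicate number. The labels state no pairing, so the pairing of root arrays by number is read from these data only. The correlations were 0.14, 0.03 and 0.11 in nodules, where the numbers gave little sign of pairing.

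Descriptions came from the study's lists of changed probesets (2964 read, one list in part). No accession matched the gene table of the reference. Named probesets were the 5, every other listed probeset of PEP carboxylase, its kinase, G6PDH or sucrose synthase, the 2 with the largest change in each organ from each pathway list, and the 3 most alike in pattern to each of the 5. The probesets, lists and tests were chosen with earlier results of these data known. Alternatives were 75th percentile scaling, quantile normalization, normexp background correction (offset 50), no filter, 1 fit of all 12 arrays, replicate number or slide as a block, values within 1 slide, the methods' t-test on scaled signals with and without adjustment, the series table, and each array left out in turn.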

Additional observations from a re-analysis of the deposited data

Results flagged for a closer look

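The nitrate effect differed between roots and nodules for 3 of the 5 probesets by the interaction term of the limma fit on 12 arrays. Over all probes, 14.7% were called. The interaction contains the contrasts that chose these probesets, so the count is a description. It was larger in roots by 3.97 for GMFL01-28-O12-R_277 and by 2.42 for BI469169.1_494, the PEPC4 probesets. Nitrate raised every treated root array above every control root array on both. For GMFL01-18-L05-R_174, described as glucose-6-phosphate dehydrogenase, the root effect was below the nodule effect, at -1.35, with all 3 treated nodule arrays above all 3 control nodule arrays. These separations lie in the contrasts that chose the probesets, and their share over all probes was not counted.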

How the results depend on the processing

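All values are log2 changes unless counts. With the slide as a block, calls were lost for PEPC4 in roots (3.72 and 2.35), BQ452515.1_362 in roots (-1.14), the control organ difference of GMFL01-28-O12-R_277 (-1.97) and of sucrose synthase (2.22), and the organ difference in the nitrate effect of BI469169.1_494 (2.09). In that fit the root effect rests on control array 1 and the nodule effect on treated array 3. The adjusted methods' t-test lost the root calls of both PEPC4 probesets (4.21 and 2.69) and BQ452515.1_362 (-1.41). It lost the control organ difference of sucrose synthase with and without adjustment (2.50). BQ452515.1_362 in roots also lost its call under normexp (-0.73) and with no filter (-1.41), where more probes are tested. Normexp took the nitrate-treated organ difference of GMFL01-18-L05-R_174 to 0.87. The fit of all 12 arrays lost the nodule rise of sucrose synthase (1.53). The difference of the nitrate effect for BQ452515.1_362 passed under 75th percentile scaling (-1.19), quantile normalization (-1.20) and the replicate block (-1.05), and the block changed no other call of the 5. Within 1 slide, GMFL01-18-L05-R_174 in roots stood at -0.38 and sucrose synthase in nodules at 1.87.

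Leaving out 1 array at a time gave in roots 3.79 to 4.68 and 2.36 to 2.95 for PEPC4, -0.23 to 0.088 for GMFL01-18-L05-R_174, -1.59 to -1.23 for BQ452515.1_362 and -0.045 to 1.43 for sucrose synthase. Between control organs BI469169.1_494 ran from -0.54 to 0.043. Between nitrate-treated organs GMFL01-18-L05-R_174 ran from 0.89 to 1.19 and sucrose synthase from 0.67 to 2.14, and the organ difference in the nitrate effect of BQ452515.1_362 from -1.23 to -0.87. Where these ranges cross 0, no call was made in either direction. The cause of these changes was not tested.

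The number of all probes called in roots, 865, was 1731 with 75th percentile scaling, 1799 with quantile normalization, 555 with no filter, 2790 in 1 fit of all arrays, 2903 with the replicate block, 128 with the slide as a block, 77 and 1946 by the methods' t-test with and without adjustment, and 194 to 2521 without 1 array. In nodules, 3037 became 1719 under normexp and 5115 with the slide as a block. Of these calls 1123 were higher, against 1368 of 2906 after quantile normalization. The organ difference in the nitrate effect gave 2551 in place of 5339 with the slide as a block, and 3460 to 8964 without 1 array. The root calls among the 44 pathway probesets, 17, became 26 with quantile normalization, 32 in 1 fit of all arrays, 35 with the replicate block, 3 with the slide as a block, 3 and 34 by the methods' t-test with and without adjustment, and 6 to 27 without 1 array. Their nodule calls, 16, became 8 under normexp, 10 in 1 fit of all arrays and 10 to 17 without 1 array. Their calls for the organ difference, 33, became 18 with the slide as a block.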
